A study of Mus musculus with 8 samples.

Results

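The Akr1c aldo-keto reductases and the flavin-containing monooxygenases (Fmo) were described in embryonic mouse pancreas with and without Sox9. Their 9 genes were Akr1c12, Akr1c13, Akr1c14, Akr1c18, Akr1c19, Fmo1, Fmo2, Fmo4 and Fmo5, found by their gene symbol among the 41174 non-control probes of the array. They had 15 probes, 6 for the 5 Akr1c genes and 9 for the 4 Fmo genes. All 9 genes had a probe that passed the filter on dim signals and stood among 19333 features tested. The genes were chosen by their processed signals in these same mutant and wild-type arrays, so the difference between genotypes is given as a description, and the counts below are no separate evidence for it.

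The 4 Sox9 mutant samples came from Sox9fl/fl embryos carrying Rosa26-CreER, whose recombinase becomes active with tamoxifen and removes the floxed Sox9 allele. The 4 wild-type samples came from littermates that also carried Rosa26-CreER. All dams received tamoxifen (6 mg per 40 g, in corn oil) at e12.5, so drug and recombinase were common to both genotypes. Epithelium of the dorsal and ventral pancreas was taken at e15.5, after 3 days. The Sox9-flox line had a mixed FVB/N, C57Bl/6J and CD1 background and the Rosa26-CreER line a C57Bl/6J background. Rosa26 is active in nearly all cells, so deletion was not limited to the epithelium by design. Each RNA sample was a pool of 4 pancreata, hybridised to a one-colour Agilent array, so the spread between samples is one between pools. The samples were named pancreatic epithelia, but markers of mesenchyme, endothelium and myeloid cells were also read in them, as given below. Because RNA came from such mixed tissue, fewer cells of a type and less RNA per cell cannot be told apart.

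Akr1c enzymes use NADPH or NADH to interconvert ketones and alcohols, mainly of steroids and prostaglandins, and thereby set how much active hormone a cell holds. Fmo enzymes use NADPH, flavin and oxygen to oxygenate nitrogen and sulfur atoms of drugs and dietary compounds. Both families are best known from liver, kidney, lung, gut and steroid-forming tissues. In the mouse most Akr1c genes sit side by side on chromosome 13, and Fmo1, Fmo2 and Fmo4 on chromosome 1, while Fmo5 lies apart on chromosome 3.

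Levels are log2 processed signals from which each array's 75th percentile was subtracted, each for the brightest probe of a gene, and genotypes were compared with limma over all features. The targeted gene Sox9 (probe A_52_P214630, mm8 chr11:112603585-112603644) averaged 0.50 ± 0.08 in mutants and 1.83 ± 0.07 in wild type (SD, n = 4 pools each), so 39.8% of the wild-type signal was left (adjusted p = 7.96e-04). One array stood apart: mutant replicate 2 had a median signal of 756 scanner units against 219 to 272 on the other 7 arrays, and 86.1% of its probes were called above background against 69.6% to 74.0%. Its negative control spots read -6.90 on the relative scale, against -8.93 to -8.26 on the others. The members and the gene lists are therefore given with and without it, and single genes of the lists where leaving it out changes the call or the direction of a value printed. All mutant arrays were on slide 2 and scan run 2 and all wild-type arrays on slide 1 and scan run 1, so slide and genotype cannot be told apart.

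Of the 9 genes, Akr1c14 rose and Fmo1 and Fmo2 fell in Sox9 mutants at an adjusted p under 0.05, and the other 6 did not pass. Over all features 5.58% passed, 2.13% towards higher and 3.46% towards lower levels. In Akr1c14 all 4 mutant arrays were above all 4 wild-type arrays, and in Fmo1 and Fmo2 all were below. Such a gap was seen in 25.8% of all features, 10.6% with the mutants above and 15.2% with the mutants below. The median log2 fold change was 0.28 over the 5 Akr1c genes and -0.98 over the 4 Fmo genes, beside -0.01 over all features. Without mutant replicate 2, 1 gene was higher, 3 were lower (Fmo4 in addition) and 5 did not pass. In that fit 17.4% of all features passed, 6.76% higher and 10.6% lower.

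**Figure D1:**
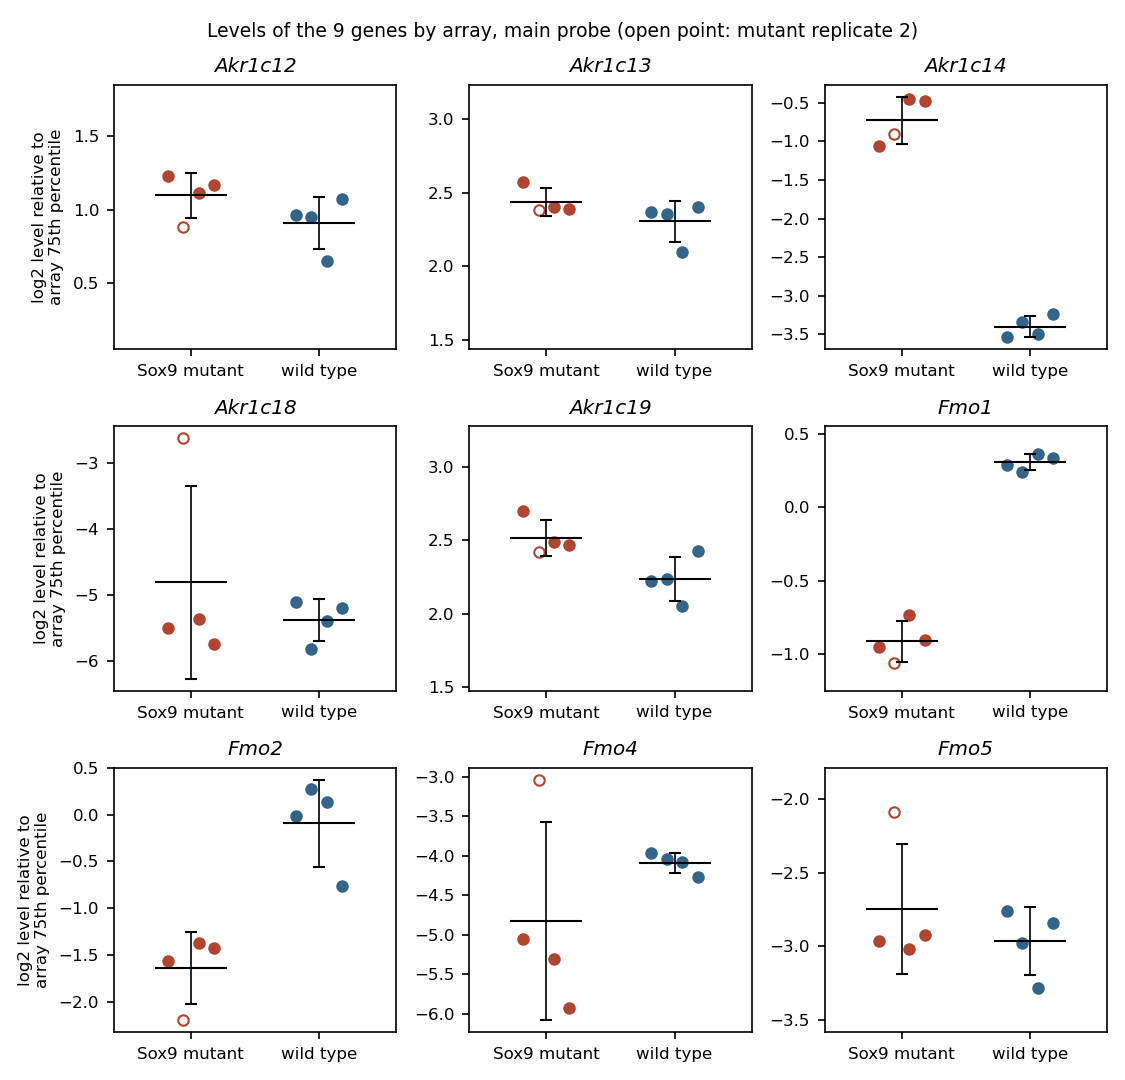
Log2 level relative to the array's 75th percentile (y axis, its own range for each gene) of the main probe of each of the 9 genes, in the 4 Sox9 mutant pools (left, red) and the 4 wild-type pools (right, blue), with mean and SD. Mutant replicate 2 is the open point. Akr1c14, Fmo1 and Fmo2 separate the genotypes, and the open point lies far above the other mutant pools in Akr1c18 and Fmo4.

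Akr1c14, the mouse 3-alpha-hydroxysteroid dehydrogenase, which reduces dihydro-steroids such as dihydrotestosterone and dihydroprogesterone, showed the largest change of the 9. Its probe (A_51_P284177, mm8 chr13:4089196-4089255, plus strand) read -1.07, -0.90, -0.46 and -0.48 in mutant replicates 1 to 4, against -3.53, -3.33, -3.50 and -3.23 in wild-type replicates 1 to 4. Every mutant pool lay far above every wild-type pool, and the probe was above background on all 8 arrays. Before any scaling the scanner values were 1092, 1305, 1494 and 1478 units in mutants and 170.0, 205, 165 and 234 units in wild type. The unscaled values of mutant replicate 2 thus fell within those of the other mutant pools. The means were -0.73 ± 0.31 in mutants and -3.40 ± 0.14 in wild type, a log2 fold change of 2.67 (SE 0.16, adjusted p = 0.00101), or 6.37-fold higher. Only 27 of the 19333 features had a larger rise. Without mutant replicate 2 the log2 fold change was 2.73 (adjusted p = 5.14e-04). Leaving out any single array kept the call (8 of 8 fits), and it was lost when arrays were centred on their median (2.27, adjusted p = 0.0560) or corrected with normexp (1.82, adjusted p = 0.204).

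The Akr1c14 promoter is shown because the mutated gene encodes a SOX factor and, of the 8 members searched, only this one had the SOX core letters. RefSeq promoter windows on GRCm38.p6, from 250 bases before to 50 bases after the gene start, matched 8 of the 9 genes. Fmo1 had no window and was not searched. The core AACAAT, which reads as ATTGTT from the other strand, was searched on both strands and occurred in 10.7% of all 32851 windows of that length. Capitals mark the 2 matches, 240 and 67 bases before the start (chr13:4059341-4059640, plus strand, written 5′ to 3′).
Akr1c14: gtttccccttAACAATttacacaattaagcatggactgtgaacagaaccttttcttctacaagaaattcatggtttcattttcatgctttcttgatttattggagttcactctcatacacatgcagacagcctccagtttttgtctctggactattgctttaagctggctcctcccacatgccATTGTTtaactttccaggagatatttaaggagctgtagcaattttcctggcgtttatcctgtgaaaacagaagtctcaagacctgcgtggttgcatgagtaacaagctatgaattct
The windows of the other 7 genes had no match. Of the other motifs searched on both strands, the antioxidant response core, TGACNNNGC, occurred in 12.4% of windows and in Akr1c19 among the members, and the TATA core, TATAAA, in 13.6% and in Fmo5. Neither lies in the Akr1c14 window, and these letters show only the sequence, not binding.

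Akr1c12, Akr1c13 and Akr1c19, close relatives whose substrates are less well described than those of Akr1c14, were read by probes far above background in both genotypes and moved little. Akr1c19 (A_51_P180213, mm8 chr13:4238234-4238293, plus strand) read 2.70, 2.42, 2.49 and 2.47 in mutants, against 2.22, 2.24, 2.06 and 2.42 in wild type. The highest wild-type pool reached the lowest mutant pool, and the log2 fold change of 0.28 (SE 0.10, adjusted p = 0.137) did not pass. It passed with array weights (0.32, adjusted p = 0.0244) and in the deposited series table's values (0.39, adjusted p = 0.0294), and in none of the other 15 alternatives. The fit without mutant replicate 2 gave 0.32 (adjusted p = 0.0730). Its second probe (A_51_P111335, mm8 chr13:4247501-4247560) read 2.31, 2.02, 2.02 and 1.83 in mutants and 1.52, 1.33, 1.62 and 1.73 in wild type. On that probe all mutant pools were above all wild-type pools, with a difference of 0.50 that did not pass the probe-level fit (adjusted p = 0.0818). The difference was also 0.50 without mutant replicate 2. The probe-level fit without that array called 6 member probes, 2 of them higher, against 1 higher with all arrays. The adjusted p of this probe in that fit is not given here.

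Akr1c12 (A_51_P242859, mm8 chr13:4272198-4272257, minus strand) read 1.23, 0.88, 1.11 and 1.17 in mutants, against 0.96, 0.95, 0.65 and 1.07 in wild type. The pools of both genotypes were mixed, with a log2 fold change of 0.19 (SE 0.12, adjusted p = 0.341). Akr1c13 (A_52_P346037, mm8 chr13:4202638-4204588, plus strand) read 2.58, 2.39, 2.40 and 2.39 in mutants, against 2.37, 2.36, 2.10 and 2.40 in wild type. Here too the genotypes overlapped, with a log2 fold change of 0.13 (SE 0.09, adjusted p = 0.382). In the main probes of Akr1c12, Akr1c13 and Akr1c19 alike, mutant replicate 1 was the highest of the 8 pools and wild-type replicate 3 the lowest. The positive sign of all 3 turned negative when arrays were centred on their median. That centring moved the median log2 fold change of all features from -0.01 to -0.40.

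The Akr1c13 probe carries transcript identifiers of both Akr1c12 and Akr1c13 in the array annotation, so its signal cannot be assigned to either gene alone. The promoter windows of the same pair are shown for how alike these genes are: 284 of 296 aligned bases, or 95.9%, were identical, while the other pairs of Akr1c windows reached at most 67.1%. They lie at chr13:4279350-4279649 on the minus strand (Akr1c12) and chr13:4190937-4191236 on the plus strand (Akr1c13) of GRCm38.p6, and neither holds the SOX core.
Akr1c12: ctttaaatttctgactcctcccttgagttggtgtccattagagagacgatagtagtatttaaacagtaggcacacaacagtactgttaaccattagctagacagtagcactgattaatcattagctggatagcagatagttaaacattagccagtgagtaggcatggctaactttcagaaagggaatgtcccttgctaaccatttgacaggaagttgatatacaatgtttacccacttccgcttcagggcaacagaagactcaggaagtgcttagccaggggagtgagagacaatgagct
Akr1c13: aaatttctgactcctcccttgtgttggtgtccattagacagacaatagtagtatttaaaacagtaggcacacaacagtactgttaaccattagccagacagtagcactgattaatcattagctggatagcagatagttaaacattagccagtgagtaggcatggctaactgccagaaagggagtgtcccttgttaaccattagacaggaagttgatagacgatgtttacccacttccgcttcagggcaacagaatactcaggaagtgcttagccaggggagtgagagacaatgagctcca

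Akr1c18, the 20-alpha-hydroxysteroid dehydrogenase that inactivates progesterone in the mouse ovary, was dim. Its probe (A_51_P256170, mm8 chr13:4134506-4135881, minus strand) read -5.50, -2.63, -5.37 and -5.74 in mutants, against -5.12, -5.82, -5.40 and -5.21 in wild type. The 3 other mutant pools lay among the wild-type pools, and mutant replicate 2 stood alone above all. The log2 fold change of 0.58 (SE 0.68, adjusted p = 0.596) became -0.15 (adjusted p = 0.577) without that array. For such dim probes the scale matters: the lowest level called above background was -4.71 on the array of mutant replicate 2, against -6.70 to -6.13 on the other 7.

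Fmo1, a xenobiotic oxygenase of mouse liver and kidney, fell. Its main probe (A_52_P508991, mm8 chr1:164666581-164666640, minus strand) read -0.95, -1.06, -0.73 and -0.91 in mutants, against 0.29, 0.24, 0.36 and 0.33 in wild type. The genotypes were clearly apart, and the spread within each was small. Unscaled values were 1182, 1170.2, 1237 and 1098 units in mutants and 2399, 2430.4, 2391 and 2773 units in wild type. The means of -0.91 ± 0.14 in mutants and 0.30 ± 0.05 in wild type differed by -1.22 (SE 0.08, adjusted p = 0.00146), a 2.32-fold fall. Leaving out any single array kept the call, with -1.17 (adjusted p = 5.31e-04) without mutant replicate 2. Centring on the median ended the call (-1.62, adjusted p = 0.143). A second Fmo1 probe (A_52_P408245, mm8 chr1:164668253-164668312) was below the background call on all 8 arrays.

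Fmo2, the main Fmo of the lung in many mammals, fell on both probes that were above background, by 2.93-fold on the brighter. That probe (A_51_P301998, mm8 chr1:164713371-164713430, minus strand) read -1.57, -2.20, -1.37 and -1.43 in mutants, against -0.02, 0.28, 0.14 and -0.77 in wild type. The genotypes did not overlap, with mutant replicate 2 and wild-type replicate 4 the lowest of their groups. The means of -1.64 ± 0.38 in mutants and -0.09 ± 0.47 in wild type differed by -1.55 (SE 0.28, adjusted p = 0.0240). The second probe (A_52_P273891, mm8 chr1:164712074-164712133) read -3.10, -2.58, -2.94 and -3.17 in mutants and -1.46, -1.45, -1.63 and -1.69 in wild type. These groups were further apart relative to their spread, with -1.39 (SE 0.14, adjusted p = 0.00558 in the probe-level fit, in which 3.84% of all 29462 probes passed). The main probe's call was less stable than its direction: it remained in 2 of the 8 leave-one-out fits, those without mutant replicate 2 (-1.36, adjusted p = 0.0125) or wild-type replicate 4, and in 6 of all 17 alternatives, whose adjusted p ran from 0.00113 to 0.164. The remaining probe (A_52_P1138659, mm8 chr1:164724845-164724904) was above background on 1 wild-type array and on 0 mutant arrays, and was not tested.

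Fmo4, a little-studied member, was dim, and its call depended on mutant replicate 2 and on the scaling. Its probe (A_52_P471282, mm8 chr1:164630653-164630712, minus strand) read -5.05, -3.03, -5.30 and -5.93 in mutants, against -3.97, -4.04, -4.08 and -4.26 in wild type. Mutant replicates 1, 3 and 4 were below all wild-type pools and mutant replicate 2 above all of them. With all arrays the log2 fold change was -0.74 (SE 0.57, adjusted p = 0.429), and without mutant replicate 2 it was -1.34 (SE 0.20, adjusted p = 0.00731). Down-weighting poorly fitting arrays (-1.41, adjusted p = 0.00491) also gave a call. So did 2 alternatives that keep mutant replicate 2 at full weight, quantile normalization (-1.48, adjusted p = 0.0263) and the values of the deposited series table (-0.64, adjusted p = 0.0165).

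Fmo5, which inserts oxygen beside ketones (Baeyer-Villiger oxidation) and is abundant in liver and gut, did not differ detectably. Its main probe (A_52_P460767, mm8 chr3:97737653-97737712, plus strand) read -2.96, -2.09, -3.02 and -2.92 in mutants, against -2.76, -2.98, -3.28 and -2.84 in wild type. Apart from mutant replicate 2, the mutant pools lay within the wild-type range. The log2 fold change was 0.22 (SE 0.23, adjusted p = 0.557), and without mutant replicate 2 it was -0.00298 (SE 0.12). The neighbouring probe (A_51_P468005, mm8 chr3:97737582-97737641) had -0.33 (adjusted p = 0.367), and there mutant replicate 2 was the lowest pool at -4.00; without it the difference was -0.14. The remaining probe (A_52_P1147453, mm8 chr3:97738870-97738929), above background on 1 mutant and 3 wild-type arrays, had -0.03 (adjusted p = 0.984). There mutant replicate 2, the mutant array above background, read -3.10 and the other mutant pools -7.58 to -6.51. Without mutant replicate 2 the difference on this probe was -0.99, for which no adjusted p is given here.

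**Figure D2:**
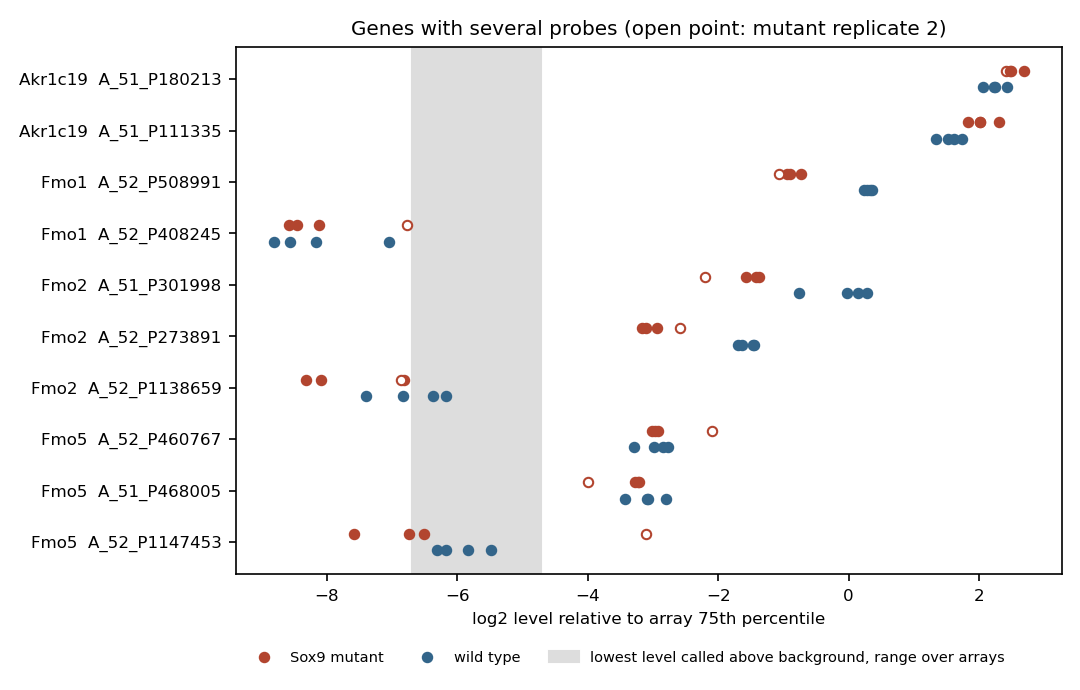
Log2 level relative to the array's 75th percentile (x axis) for every probe of the 4 genes with several probes, Sox9 mutant pools above (red) and wild-type pools below (blue) in each row; the grey band spans the lowest level called above background on each array. Both bright Fmo2 probes have mutant pools to the left of wild-type pools, the main Fmo1 probe likewise, and the second Fmo1 probe and the dimmest Fmo2 probe lie at or below the band.

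The 5 Akr1c members span 183 kb, with Akr1c14 at the low-coordinate end, and its rise was not shared by Akr1c18, Akr1c13, Akr1c19 or Akr1c12 at the threshold; whether their fold changes differ from that of Akr1c14 was not tested. Further Akr1c probes on chromosome 13 were mostly dark: Akr1c6 and both Akr1c20 probes did not pass the filter, and Akr1c21, above background on 2 mutant and 4 wild-type arrays, had 0.27 (adjusted p = 0.830), which turned to -0.54 (adjusted p = 0.0692) without mutant replicate 2. The nearest other genes with a tested probe were Ucn3, the urocortin 3 hormone of islets, 149 kb below, and Akr1e1, an aldo-keto reductase, 320.0 kb above. For Ucn3 the log2 fold change was 1.38 (SE 0.78, adjusted p = 0.302), and without mutant replicate 2 it was 0.53 and passed (adjusted p = 0.0310). Ucn3 was dim, at -4.73 ± 1.71 in mutants and -6.11 ± 0.21 in wild type. The lowest level called above background on the wild-type arrays was -6.70 to -6.13. Akr1e1 had a log2 fold change of 1.57 (SE 0.36, adjusted p = 0.0524) that passed without mutant replicate 2 (1.29, adjusted p = 0.0256).

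The chromosome 1 members span 94.3 kb, in the order Fmo4, Fmo1 and Fmo2, and all 3 had negative log2 fold changes, 2 of them called. Fmo6, just beyond Fmo2, and the more distant Fmo9 were above background on 1 mutant array and 0 wild-type arrays each and were not tested. The genes that flank the cluster did not pass: Prrc2c, 70.8 kb below, had 0.27 (adjusted p = 0.332), and the mesenchymal homeobox gene Prrx1, 360.0 kb above, had 0.31 (adjusted p = 0.163).

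**Figure D3:**
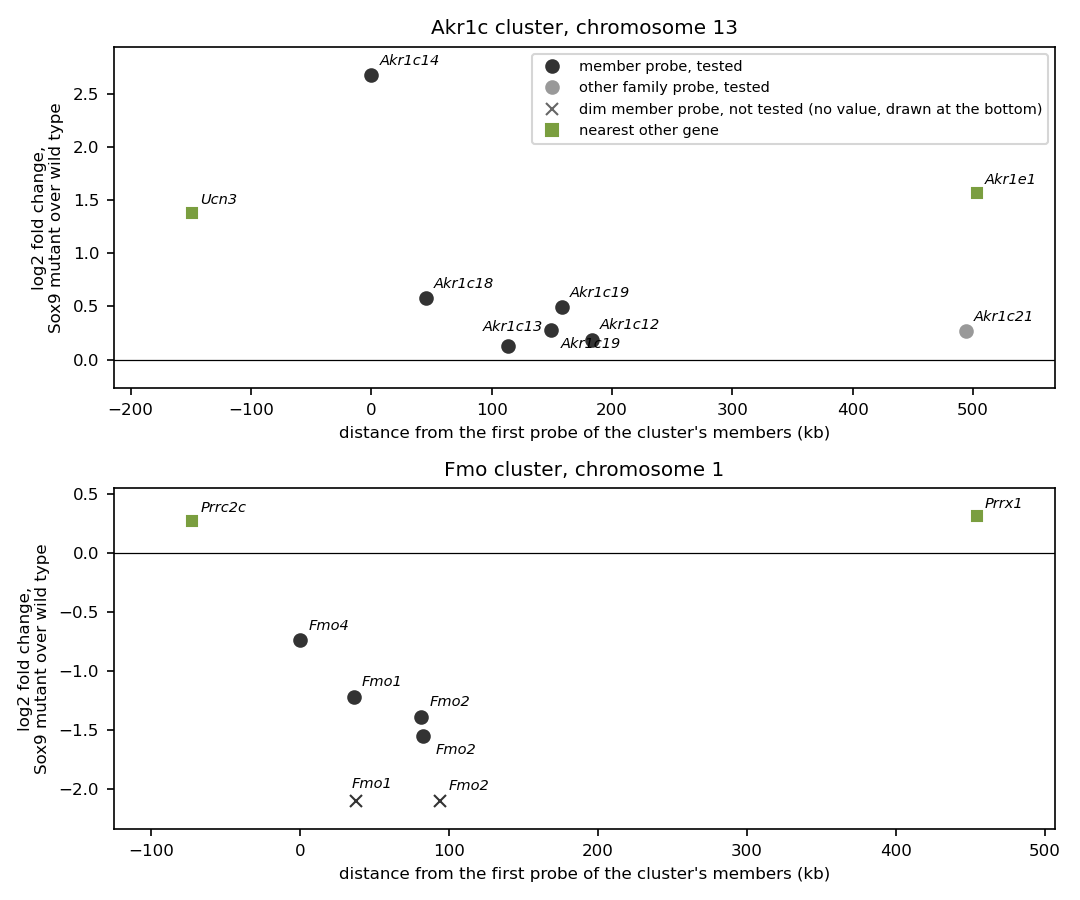
Log2 fold change, Sox9 mutant over wild type (y axis), against distance in kb from the first member probe (x axis), for the Akr1c cluster of chromosome 13 (top) and the Fmo cluster of chromosome 1 (bottom). Dark circles are tested member probes, grey circles other family members, green squares the nearest other genes, and crosses, drawn at the bottom, dim member probes without a value. Akr1c14 stands at 2.67 above its cluster, and the tested Fmo probes of chromosome 1 all lie below 0.

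The counts of all gene lists stand beside 5.58% of all features called in the reported fit and 17.4% without mutant replicate 2. At an unadjusted p under 0.05 in limma the share was 25.5%. Among related enzymes, the other aldo-keto reductases had 1 of 9 tested genes called. This was Akr1b7, an aldose reductase-like enzyme known from adrenal and vas deferens, at 0.85 ± 0.56 in mutants and -1.35 ± 0.24 in wild type. Its log2 fold change of 2.20 (SE 0.28, adjusted p = 0.00816) was a 4.59-fold rise. The median over the 9 was 0.27, beside -0.01 over all features. Without mutant replicate 2, Akr1b7, Akr1e1 and Akr1b8 were called, all higher. Akr1b8, a reductase of aldehydes, had 0.36 with all arrays (adjusted p = 0.0952).

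The list of steroid, prostaglandin and carbonyl metabolism holds mainly enzymes that act on such compounds, and also receptor and transport genes such as Ptgfr and Star. Of its 32 tested genes 0 were higher and 1 was lower, with a median of 0.09. The gene that fell was Hpgd, whose product begins the breakdown of prostaglandins, with a log2 fold change of -0.67 (SE 0.09, adjusted p = 0.00960). Without mutant replicate 2 there were 2 higher and 4 lower of the 32, beside 17.4% of all features called in that fit.

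The NRF2 response and NADPH supply list, which holds the antioxidant genes and the enzymes that regenerate the NADPH both families use, had 0 of 31 tested genes higher and 4 lower, with a median of -0.05. Gpx2, a glutathione peroxidase of epithelia, averaged -0.24 ± 0.21 in mutants and 1.07 ± 0.21 in wild type, a 2.48-fold fall (adjusted p = 0.00510). Mgst1, a membrane glutathione transferase, fell 2.01-fold (adjusted p = 0.0106), and Me1 (Mod1 on the array), the cytosolic malic enzyme that yields NADPH, fell 1.76-fold (adjusted p = 0.0274). Abcc4, an exporter of conjugates and prostaglandins, fell by 0.50 on the log2 scale (adjusted p = 0.0147). Leaving out mutant replicate 2 gave 3 higher and 5 lower of the 31, beside 17.4% of all features called in that fit.

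The cytochrome P450 system and xenobiotic receptors had 0 of 26 tested genes called by limma (4 at an unadjusted p under 0.05, beside 25.5% of all features), with a median of 0.10. The smallest p-values belonged to Nnmt, a methyltransferase of nicotinamide (0.69, adjusted p = 0.0643), and Cyp26b1, which degrades retinoic acid (0.30, adjusted p = 0.0974). Without mutant replicate 2, 0 were higher and 4 lower, and the median turned to -0.03, that of all features then also being -0.03.

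Epithelial identity was checked with 10 markers, of which 1 was higher and 2 were lower. Of the 10, 6 had an unadjusted p under 0.05 in limma, beside 25.5% of all features. Cdh1 averaged 3.52 ± 0.20 in mutants and 3.53 ± 0.07 in wild type, and Epcam 3.22 ± 0.11 in mutants and 3.27 ± 0.12 in wild type, and these adhesion genes changed least of the 10. The progenitor factor Pdx1 fell (-1.05, adjusted p = 0.00168), as did Spp1, a duct marker (-1.14, adjusted p = 0.00348), while the factor Onecut1 rose (0.94, adjusted p = 0.0186). When mutant replicate 2 was left out, the keratins Krt8, Krt18 and Krt19 were also called higher, which made 4 higher and 2 lower. Levels of the list, summed per array in units of the array's 75th percentile, were 322 to 428 in mutants and 401 to 439 in wild type. Without mutant replicate 2 the mutant sums were 397 to 428.

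Since both enzyme families are prominent in liver and gut, markers of these organs were summed in the same way. Of 15 liver markers tested 0 were called by limma (2 at an unadjusted p under 0.05, beside 25.5% of all features). Without mutant replicate 2 Ttr was called higher and Hpx lower. Their sum was 14.1 to 43.8 in mutants (14.1 to 15.4 without mutant replicate 2) and 7.63 to 21.9 in wild type, and their median log2 fold change of -0.02 became -0.91 without that array. Of 18 stomach and intestine markers 14 were tested, 2 were higher (Krt20, 13.3-fold, and Barx1, 1.20-fold) and 1 was lower (Ctse). Their sum of 8.43 to 10.8 in mutants did not overlap the 5.15 to 8.0 of wild type, and without Krt20, left out after its values were seen, the sums overlapped: the other 13 came to 5.03 to 7.08 in mutants and 4.77 to 7.77 in wild type. The fit that left out mutant replicate 2 had 3 higher (Sox2 in addition) and 1 lower, and the median turned to -0.11, against 0.23 with all arrays. The stomach markers Gkn1, Gkn2 and Pgc and the intestinal factor Cdx1 did not pass the filter.

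Neuron and Schwann cell markers had 0 higher and 4 lower of 14 with and without mutant replicate 2, with sums of 9.5 to 12.9 in mutants and 14.0 to 19.2 in wild type. Without S100b, the marker with the largest linear difference, the sums overlapped (8.64 to 12.3 in mutants, 11.9 to 17.3 in wild type). Erythroid markers had 2 of 10 higher, the embryonic globins Hbb-y and Hba-x, and Epb42 was called lower in addition without mutant replicate 2. Their sum over the 9 measured on every array, which leaves out Hba-a1, was 4.98 to 13.2 in mutants (4.98 to 8.52 without mutant replicate 2) and 2.84 to 4.68 in wild type, a gap that closed without Hbb-y (2.72 to 7.56 in mutants, 2.04 to 3.16 in wild type). The other lists overlapped in their sums. Mesenchyme had 1 higher of 17, and 2 higher and 1 lower without mutant replicate 2. Its sums were 332 to 436 in mutants (397 to 436 without that array) and 417 to 495 in wild type. The sums of the 10 epithelial markers were of similar size, 322 to 428 in mutants and 401 to 439 in wild type. The pools thus held mesenchymal RNA beside that of epithelium. The 2 lists differ in their probes and number of genes, so their sums do not measure the share of each tissue. Of 12 endothelial markers 0 were called by limma (0 at an unadjusted p under 0.05), also without mutant replicate 2. Their sums were 29.9 to 36.6 in mutants (34.9 to 36.6 without that array) and 31.9 to 36.1 in wild type. Of 13 myeloid and lymphoid markers 0 were called by limma (3 at an unadjusted p under 0.05), and without mutant replicate 2 Itgam was called higher (0.80, adjusted p = 0.0290). Those sums were 26.6 to 37.4 in mutants (31.4 to 37.4 without mutant replicate 2) and 34.4 to 43.3 in wild type. The part of these markers in the changes of Akr1c14, Fmo1 and Fmo2 was not tested. Whether the signal of these genes came from epithelial or other cells was not tested either.

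The genes with the most similar pattern over the 8 arrays were sought by Pearson correlation of levels, which for a gene that separates the genotypes mainly reflects that separation. For Fmo1, the closest were Slc35d3 (r = 0.995), Gpd1 (0.992) and Tox3 (0.992), and 229 features exceeded 0.95. For Akr1c14, which was added to this search after its values were seen, they included Vtn (0.998), the vitronectin gene, and Cdh16 (0.990), a cadherin, and 78 features exceeded 0.95. For Akr1c19, where the genotypes overlapped, Myog (0.981), Rmc1 (0.976) and Itpka (0.970) were closest and 9 features exceeded 0.95. These correlations share 8 arrays and the same scaling and are given without a p.

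**Figure D4:**
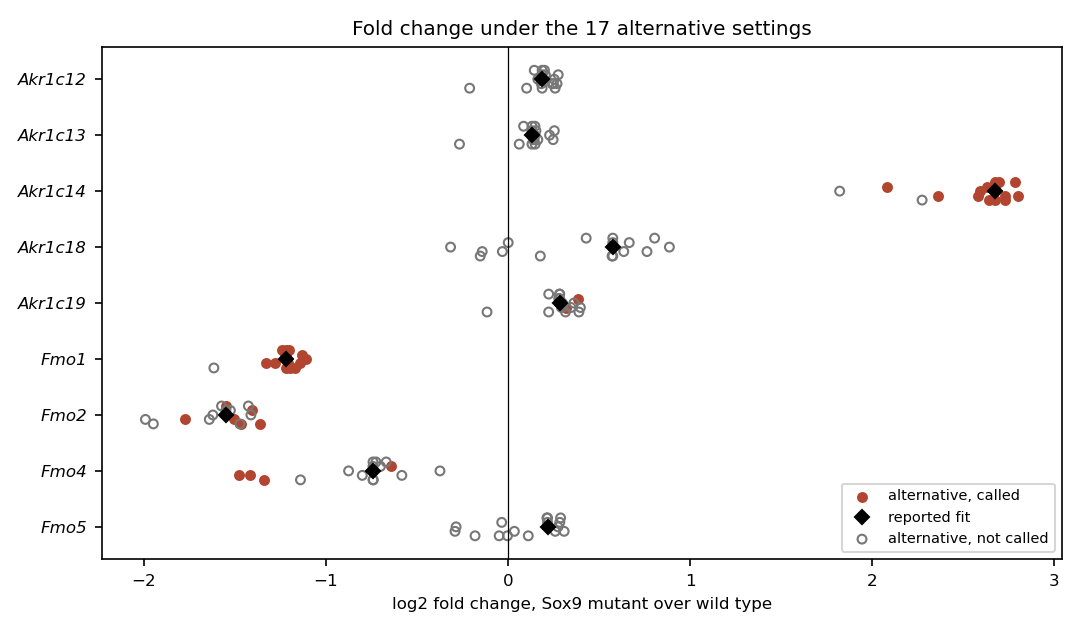
Log2 fold change, Sox9 mutant over wild type (x axis), of the 9 genes (rows) in the reported fit (black diamonds) and in the 17 alternatives (circles, filled red where the adjusted p is under 0.05). Akr1c14 stays above 0 and Fmo1, Fmo2 and Fmo4 below 0 in all of them, while the other 5 genes have points on both sides of 0.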

How the data were processed

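Total RNA of 4 Sox9 mutant and 4 wild-type pools was measured on Agilent arrays with the Cy3 dye alone. Per the file headers, Agilent Feature Extraction 9.5.3.1 made the deposited processed intensity, linear scanner units with background subtracted and spatial trends removed within the array, and no normalization between arrays. The deposited files also hold raw intensity per spot and 0 or 1 flags. The deposited series table holds linear intensity values whose steps are not given in the sources used here. The submitters' processing notes name limma. That table was used as an alternative only.

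Control and outlier spots were left out, log2 values of replicate spots were averaged, and each array was set to its 75th percentile. Probes well above background on at least 4 of 8 arrays were kept (29462 of 41174), 1 probe a gene by highest mean, with unnamed probes as features of their own. Current symbols came from RefSeq (GRCm38.p6): 24375 probes matched by accession, 6301 by symbol, 2426 by synonym and 8072 not at all. Probe positions are on mm8, per the file headers. Genotype was tested by a two-sided moderated test in limma 3.58.1 (lmFit, eBayes; R 4.3.3) over all features with Benjamini-Hochberg adjustment, and called at an adjusted p under 0.05. The fit was tested on simulated data with independent noise on each array. That simulation held no deviating array and no slide effect, so it cannot judge how either affects the calls here. Promoter windows were RefSeq's.

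The text names every member with each probe, Sox9, called members of the related lists (at most 4 a list by adjusted p, or up to 2 with the smallest p), the nearest tested gene on each side of a cluster, and the 3 genes most like the Akr1c and the Fmo member with the highest mean level; a few genes these rules reach are not reported here. Members, lists and rules were chosen with earlier results of these data known. The reported fit did not pair samples by replicate number. Correlations of same-numbered deviations from the genotype means were 0.02, -0.02, 0.05 and 0.13. The mutant mean includes the deviating mutant replicate 2, so these values cannot show whether the pools were paired. The alternatives were median centring, quantile normalization, normexp background correction (offset 50), both other filters on dim probes, the mean of a gene's probes, array weights, a replicate block, the deposited series table, and leaving out each array. The small number of arrays limits the precision.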

Additional observations from a re-analysis of the deposited data

Results flagged for a closer look

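In 4 of the 20 groups of 4 pools examined (the 9 genes and Sox9 in each genotype), 1 pool lay further from the others than Dixon's critical value of 0.829 allows. Chance alone sets off about 1 in 20 such groups. In Akr1c18, mutant replicate 2 read -2.63 and the other mutant pools -5.74 to -5.37. In Fmo5, mutant replicate 2 read -2.09 and the other mutant pools -3.02 to -2.92. In Akr1c13, mutant replicate 1 read 2.58 and the other mutant pools 2.39 to 2.40, while wild-type replicate 3 read 2.10 and the other wild-type pools 2.36 to 2.40.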

How the results depend on the processing

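Over the 17 alternatives, 8 of which leave out 1 array, Akr1c14 kept its direction and was called in 15, Fmo1 in 16 and Fmo2 in 6. Not called with the reported settings, Fmo4 was called in 4 and Akr1c19 in 2 (array weights and the series table). Leaving out 1 array gave 2 to 4 called members, 3 to 6 called member probes and 363 to 3355 called features, the last without mutant replicate 2, against 3, 4 and 1079 with all arrays. The Sox9 difference was then -1.36 to -1.30. Centring on the median moved the median of all features to -0.40. It left 45 features called (46.7% higher, against 38.1% in the reported fit), 1 member probe and 0 members by limma (4 members at an unadjusted p under 0.05), and Sox9 at -1.73 (adjusted p = 0.110). Other directions under it were -0.21 for Akr1c12, -0.27 for Akr1c13, -0.12 for Akr1c19 and -0.18 for Fmo5, all reversed. Normexp correction left 78 features (20.5% higher), 1 member and 1 member probe called, with Akr1c18 reversed at -0.32 and Fmo5 at -0.29. Array weights gave 4687 features, 5 members and 8 member probes, with Akr1c18 at -0.031. The series table gave 2179 features, 5 members and 7 member probes, with Fmo5 at -0.035. No filter gave 426 features, and the mean of a gene's probes 711, with Fmo5 at -0.049. Quantile normalization turned Akr1c18 to -0.14 and Fmo5 to -0.29. Leaving out 1 array gave Akr1c18 -0.15 to 0.89 and Fmo5 -0.00298 to 0.31, both negative only without mutant replicate 2. With the replicate block 145 features (48.3% higher), 2 members and 2 member probes were called, and Fmo2 was not (adjusted p = 0.107). The causes of these shifts were not tested.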
